A study of Mus musculus with 6 samples.

Results

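The genes described here are 10 receptors of T cells, the CD28 family and the checkpoint receptors: Cd28, Icos, Ctla4, Pdcd1, Btla, Lag3, Havcr2, Tigit, Cd96 and Cd226. They are a family listed by gene name, and were chosen with earlier results of these data known. All 10 were found among the 24537 genes of the deposited table and passed the filter on low values. That filter was at least 1 TPM, a length-scaled transcript abundance, in at least 3 libraries. The samples are 6 mouse RNA-seq libraries of Tregs (regulatory T cells) taken from the colon during TNBS colitis, in which a hapten sets off inflammation of the bowel wall. Of these, 3 are labelled as REV-ERB knockout (KO) and 3 as REV-ERB wild type (WT). Both groups received the same treatment, 150 µl of 1% TNBS on the skin and, 7 days later, 100 µl of 2.5% TNBS into the rectum. Strain, age, sex, the Cre or other allele behind the knockout, and the markers used to sort the cells are not stated in the sources at hand. Separate animals behind the libraries are not named in the labels, so each p-value reflects only how these samples vary, and that variation may be technical.

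T cells read antigen together with signals from paired receptors. CD28 and ICOS amplify the antigen signal, and CTLA-4 competes with CD28 for the ligands CD80 and CD86. Tregs carry CTLA-4 constantly and use it to strip these ligands from antigen-presenting cells. PD-1 (Pdcd1), BTLA, LAG-3 and TIM-3 (Havcr2) damp T cell activation through other ligands. TIGIT, CD96 and CD226 share the nectin-like ligands of the poliovirus receptor family, with CD226 as the costimulator and TIGIT as an inhibitor.

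In the KO-labelled libraries, 8 of the 10 receptor transcripts had a lower mean level and 2, Pdcd1 and Cd96, had a higher one. Ctla4, Icos, Cd28 and Havcr2 were lower in every KO-labelled library than in every WT-labelled library, with differences from -0.26 to -0.82 on the log2 scale. Pdcd1 and Cd96 were higher in every KO-labelled library, by 0.74 and 0.34. No receptor passed the threshold of an adjusted p of 0.05 over all 13211 genes tested with limma, and the share of all genes that passed was 0%. At an unadjusted p under 0.05, 5 receptors were lower (Icos, Havcr2, Ctla4, Lag3 and Cd28) and 2 were higher (Pdcd1 and Cd96). The same unadjusted threshold was met by 7.86% of all genes in the lower direction and by 7.8% in the higher direction. Complete separation of the groups was found for 4 of 10 receptors in the lower direction and 2 of 10 in the higher one. Among all genes these shares were 10.4% and 10.6%. The median difference was -0.30 over the 10 receptors and -0.003 over all genes tested.

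Several facts of the whole set of libraries bear on these values. The reads recovered from the table numbered 12641850 to 15890631 per KO-labelled library and 9794480 to 12122575 per WT-labelled library. Nr1d1, which encodes REV-ERBα, was higher in the KO-labelled libraries (169.2, 154.3 and 141.4 TPM) than in the WT-labelled ones (66.3, 104.0 and 88.2 TPM). Which exons the knockout removes is not stated, so this transcript value does not settle the labels, and all directions follow the labels as written. All 16 epithelial markers tested had a difference (KO minus WT) above 0, with a median of 0.93, and their summed level was 2700 to 5012 TPM against 1431 to 2348 TPM. Of 10 T cell markers 8 were below 0, with a median of -0.21. At an unadjusted limma p under 0.05, 4 of these markers were lower and 0 higher. Complete separation in the lower direction was found for 4 of the 10, as many as among the receptors. The summed level of the T cell markers was 3413 to 3859 TPM in the KO-labelled libraries and 3890 to 4151 TPM in the WT-labelled ones. Foxp3, the factor that defines Tregs, was present in every library, at 171.4 to 235.0 TPM against 451.4 to 663.7 TPM. In bulk libraries, fewer cells of a type and less RNA per cell cannot be told apart.

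The receptor genes lie on 5 chromosomes, 4 of them on chromosome 1 and 3 on chromosome 16. Cd28, Ctla4 and Icos stand in this order on the plus strand of mm10 chromosome 1, with 135.7 kb between Cd28 and Ctla4 and 62.1 kb between Ctla4 and Icos. Upstream sequences from RefSeq (GRCm38.p6) were matched for 6 of the 10 members, and 3 are shown, each being the 250 bases before the annotated start, 5′ to 3′ on the gene's strand. Pdcd1 and Havcr2 are shown because both hold the half-site bound by REV-ERB and related receptors, AGGTCA, while their levels differed in opposite directions. Ctla4 is shown as the most abundant member. Capitals mark AGGTCA, or its reverse complement, in the first pair, and the reverse complement of an NFAT core, GGAAAA, in Ctla4.

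Pdcd1, chr1:94052554-94052803, minus strand: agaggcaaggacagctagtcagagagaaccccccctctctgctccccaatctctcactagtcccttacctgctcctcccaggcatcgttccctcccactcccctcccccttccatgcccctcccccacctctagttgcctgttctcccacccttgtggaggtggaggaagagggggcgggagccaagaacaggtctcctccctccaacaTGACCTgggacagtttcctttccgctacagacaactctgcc

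Havcr2, chr11:46454681-46454930, plus strand: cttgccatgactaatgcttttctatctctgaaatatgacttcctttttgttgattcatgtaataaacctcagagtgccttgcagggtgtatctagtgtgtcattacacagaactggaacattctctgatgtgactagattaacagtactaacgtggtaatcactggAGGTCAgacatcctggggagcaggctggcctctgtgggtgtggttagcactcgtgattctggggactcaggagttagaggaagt

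Ctla4, chr1:60908775-60909024, plus strand: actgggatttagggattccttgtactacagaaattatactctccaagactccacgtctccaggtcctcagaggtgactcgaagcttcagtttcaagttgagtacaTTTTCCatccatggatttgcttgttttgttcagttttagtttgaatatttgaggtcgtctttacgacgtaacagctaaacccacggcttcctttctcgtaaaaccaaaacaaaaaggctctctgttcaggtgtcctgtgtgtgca

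The half-site AGGTCA, searched on both strands, began 41 bases before the start in Pdcd1, on the opposite strand, and 84 bases before it in Havcr2. It occurred in 2 of the 6 windows matched and in 14% of 32851 RefSeq windows of the same length. The NFAT core GGAAAA was found in Ctla4 and Tigit, and in 20.4% of all windows. The letters of a TATA box, TATAAA, were found in Cd96 alone of the 6, and in 12.4% of all windows. In Cd96 they began 214 bases before the start. Neither the E-box CACGTG (6.02% of all windows) nor the forkhead core TAAACA (12% of all windows) was in any of the 6. None of the marked motifs overlapped another. These are matches of letters in a window and were not tested for binding. The first transcript bases after the Havcr2 and Tigit windows were not found in the transcripts GENCODE gives these genes. Their starts, and distances from them, are therefore less sure than those of the other windows.

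**Figure D1:**
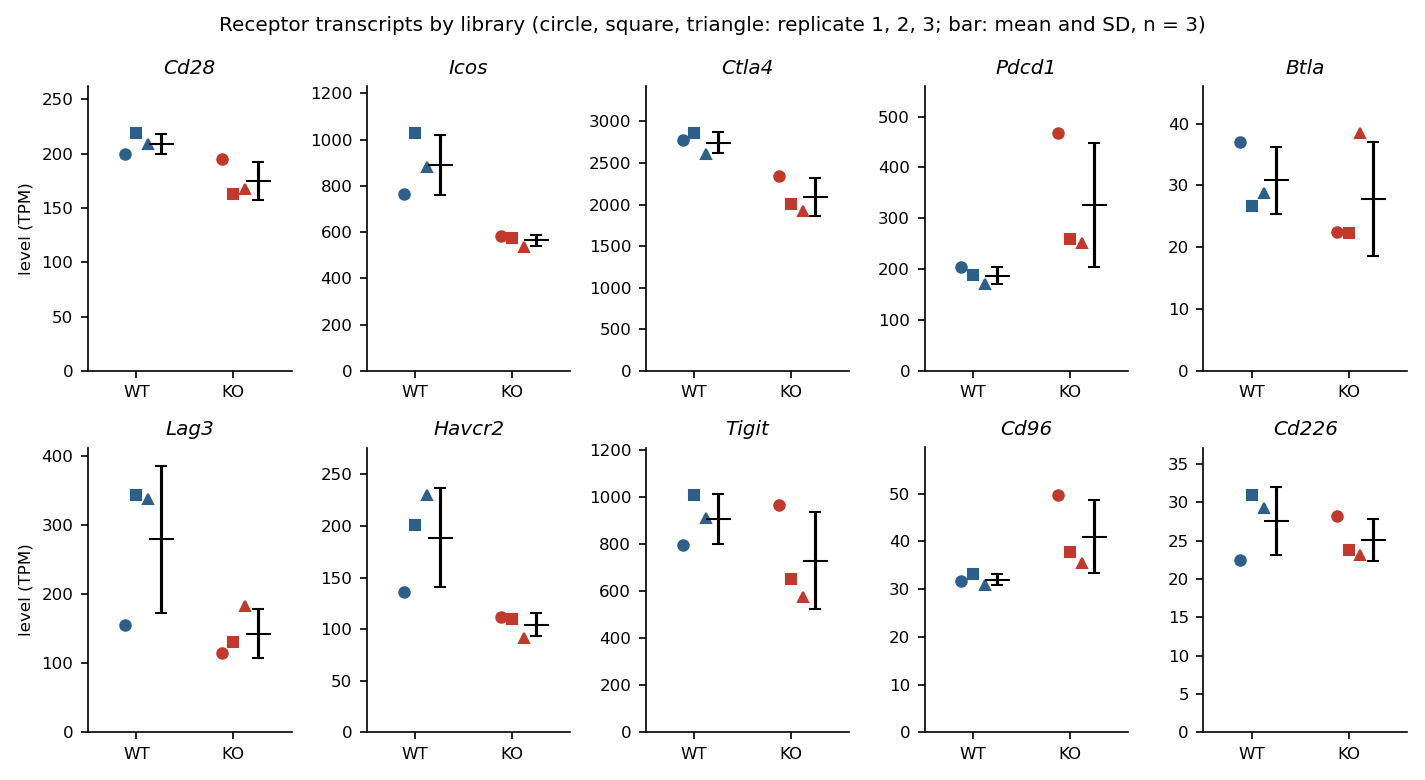
Level of each receptor transcript in TPM (vertical axes, each from 0) in the 3 WT-labelled libraries and the 3 labelled KO; black bars give mean and SD. The groups do not overlap for Cd28, Icos, Ctla4 and Havcr2 (lower with the KO label) or for Pdcd1 and Cd96 (higher), and they overlap for Btla, Lag3, Tigit and Cd226.

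Cd28 (NM_007642, mm10 chromosome 1, 60746388 to 60773359, plus strand) encodes the main costimulatory receptor of T cells. Its level was 194.7, 162.7 and 167.0 TPM in the KO-labelled libraries 1, 2 and 3. The WT-labelled libraries 1, 2 and 3 held 199.6, 218.5 and 208.6 TPM. All values labelled KO were below all values labelled WT, but KO 1 and WT 1 were only a few TPM apart. The means were 174.8 ± 17.3 and 208.9 ± 9.48 TPM (SD, n = 3 each), a difference of -0.26 on the log2(TPM + 1) scale (SE 0.103, limma adjusted p = 0.2894). This was the narrowest interval among the 10, from -0.50 to -0.02. It went to -0.09 when the mean level of the T cell markers was subtracted from each library, where the groups overlapped, and -0.14 with the epithelial score as a covariate.

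Icos (NM_017480, chromosome 1, 60977914 to 61000321, plus strand) encodes the inducible costimulator, which supports effector Tregs. Its level was 582.6, 574.1 and 538.1 TPM in the KO-labelled libraries and 763.8, 1027 and 881.4 TPM in the WT-labelled ones. The KO-labelled libraries lay close together, with a coefficient of variation of 4.18%, and well below the lowest WT-labelled library. Icos had the smallest p of the 10 members, with a difference of -0.65 (SE 0.128, unadjusted p = 0.001067, limma adjusted p = 0.1296). The mean TPM of the WT-labelled libraries was 1.58 times that of the others. Relative to the T cell markers the difference was -0.47, and the groups stayed apart.

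Cd226 (NM_178687, chromosome 18, 89197427 to 89270327, plus strand), the costimulator of the nectin-like axis, had the lowest mean level of the 10 in both groups. It stood at 28.2, 23.7 and 23.2 TPM against 22.5, 30.9 and 29.2 TPM. WT 1 was the lowest of the 6 libraries and the groups overlapped. The difference was -0.13 with an interval from -0.49 to 0.24 (limma adjusted p = 0.7234), and leaving out 1 library moved it between -0.26 (WT 1) and -0.04 (WT 2). Its sign turned when T cell markers were subtracted (0.05) or the epithelial score was a covariate (0.09).

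Ctla4 (NM_001281976, chromosome 1, 60909025 to 60915832, plus strand) ranked 9 in mean TPM among all genes of the table and made up 48% to 54.1% of the summed TPM of the 10 receptors in each library. Its level was 2344, 2003 and 1925 TPM in the KO-labelled libraries and 2770, 2854 and 2605 TPM in the WT-labelled ones. The 2 groups did not overlap, and KO 1 came closest to the WT-labelled libraries. The difference was -0.40 (SE 0.130, limma adjusted p = 0.2313), and the mean TPM of the WT-labelled libraries was 1.31 times that of the others. With the T cell markers subtracted it was -0.22, and the groups overlapped. The deposited row is that of a transcript of 3 exons, which lacks exon 3 of the 4 exons that GENCODE gives a longer form (110 bases, 60913219 to 60913328). It is not stated whether reads of exon 3 were counted, so isoforms with and without it cannot be told apart.

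Pdcd1 (NM_008798, chromosome 1, 94038305 to 94052553, minus strand) encodes PD-1, which recruits phosphatases to the antigen receptor. Values of 466.7, 260.2 and 252.1 TPM were found in the KO-labelled libraries and of 203.3, 188.7 and 169.9 TPM in the WT-labelled ones. KO 1 stood far above the others, and KO 2 and KO 3 were still above all WT-labelled libraries. The difference was 0.74 (SE 0.228, limma adjusted p = 0.2158), and the ratio of the mean TPM, in which KO 1 weighs most, was 1.74. Without KO 1 the log2 difference was 0.45. It was 0.91 relative to the T cell markers and 0.79 with the epithelial score as a covariate, so Pdcd1 kept its direction under both.

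Btla (NM_001037719, chromosome 16, 45224337 to 45252895, plus strand), an inhibitory receptor for Tnfrsf14 that B cells carry as well, was low at 22.5, 22.3 and 38.4 TPM against 37.0, 26.6 and 28.8 TPM. KO 3 was the highest and KO 2 the lowest library of all, so the groups overlapped. The difference of -0.18 (interval -0.71 to 0.35, limma adjusted p = 0.7326) became -0.43 without KO 3 and -0.06 without KO 1. It was -0.05 without KO 2 and -0.04 without WT 1. The epithelial covariate turned it to 0.03, and it was -0.004 relative to the T cell markers. Markers of B and plasma cells were present in all 6 libraries, at a summed 549 to 2074 TPM against 722.4 to 1523 TPM. Jchain, of antibody-secreting cells, made up most of this at 491.6 to 1966 TPM. Cd79a (10.3 to 26.5 TPM) and Cd79b (11.03 to 23.8 TPM), parts of the B cell receptor, were near the level of Btla, and Ms4a1 was at 1.12 to 2.27 TPM. Of the 10 markers 9 passed the filter, with a median of -0.04 and none at an unadjusted p under 0.05. The part of B cells in the Btla level was not tested.

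Lag3 (NM_008479, chromosome 6, 124904359 to 124911705, minus strand) encodes a receptor of MHC class II. Its level was 115.6, 130.7 and 183.3 TPM in the KO-labelled libraries and 156.3, 343.9 and 338.3 TPM in the WT-labelled ones. WT 1 lay within the range of the KO-labelled libraries, and the other WT-labelled libraries were well above all of them. Lag3 had the largest difference among the 10, -0.90, but also the largest SE (0.313, limma adjusted p = 0.2462). Leaving out 1 library gave differences from -0.71 (without WT 2) to -1.27 (without WT 1), and the unadjusted limma p was above 0.05 without KO 1, KO 2, WT 2 or WT 3. The difference shrank to -0.17 (SE 0.454) with the epithelial score as a covariate, the largest shift of any member under that setting. Relative to the T cell markers the difference was -0.73 (SE 0.286), and the groups overlapped. The epithelial score, a mean log2 level, was 7.08, 7.62 and 6.79 in the KO-labelled libraries and 6.58, 5.89 and 6.38 in the WT-labelled ones. The 4 libraries with the highest scores, KO 1, KO 2, KO 3 and WT 1, were also the 4 with the lowest Lag3. The epithelial scores did not overlap between the labels, so the covariate cannot be told apart from the genotype label. The part of epithelial RNA in the Lag3 difference was not tested beyond the covariate. Cd4, which lies 16.2 kb from Lag3, stood at 414.5, 415.9 and 429.2 TPM against 450.7, 512.9 and 512.9 TPM, a difference of -0.23.

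Havcr2 (NM_134250, chromosome 11, 46454931 to 46481254, plus strand) encodes TIM-3, an inhibitory receptor of effector T cells that macrophages and dendritic cells carry too. Values of 111.8, 109.5 and 91.4 TPM were found in the KO-labelled libraries and of 135.7, 200.6 and 230.0 TPM in the WT-labelled ones. Every KO-labelled library was below every WT-labelled library, with WT 1 the nearest. The difference was -0.82 (SE 0.193, limma adjusted p = 0.1535), and the mean TPM of the WT-labelled libraries was 1.81 times that of the others. It was -0.65 relative to the T cell markers and -0.75 with the epithelial covariate. Markers of macrophages, monocytes and dendritic cells were present, at a summed 804.1 to 1458 TPM against 763.1 to 1215 TPM. Of these, 12 of the 13 tested were above 0, with a median of 0.12. None had an unadjusted p under 0.05, and the part of myeloid cells in the Havcr2 difference was not tested. The row of Mir6989 lies inside Havcr2 and was at 0 in every library.

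Tigit (NM_001146325, chromosome 16, 43648861 to 43664184, minus strand) encodes an inhibitory receptor that Tregs also use against effector cells, and it lay below Ctla4 in every library and above Icos in every library but WT 2. Its level was 965.6, 650.9 and 575.4 TPM in the KO-labelled libraries and 798.7, 1010 and 910.4 TPM in the WT-labelled ones. KO 1 lay among the WT-labelled libraries while KO 2 and KO 3 lay below all of them. The difference of -0.34 (interval -0.80 to 0.12, limma adjusted p = 0.437) became -0.56 without KO 1 and -0.19 without KO 3. The epithelial covariate gave -0.20, and subtracting the T cell score gave -0.17.

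Cd96 (NM_032465, chromosome 16, 46035657 to 46120248, minus strand), another receptor of that axis, stood at 49.7, 37.8 and 35.5 TPM against 31.7, 33.2 and 30.9 TPM. All KO-labelled libraries were above all WT-labelled libraries, though KO 3 exceeded WT 2 by little. The difference was 0.34 (SE 0.143, limma adjusted p = 0.3156) and 0.19 without KO 1, while relative to the T cell markers it was 0.51. Cd96 rests on 449 to 910 reads per library, for which counting alone gives an error of 4.72% at the fewest reads. Natural killer and CD8 T cells also carry Cd96, Tigit and Cd226. The defining CD8 gene Cd8a was at 0.123 to 0.905 TPM and Klra8 at 0 in all 6 libraries. Other markers of these cells were present in all 6, such as Cd8b1 (4.67 to 7.35 TPM), Xcl1 (9.92 to 43.1 TPM) and Ccl5 (17.3 to 56.3 TPM). The list of CD8 and natural killer cell markers held 8 tested of 12, with a median of -0.04, and its sum was 94.6 to 207.0 TPM against 128.6 to 194.7 TPM. The groups were apart for 1 of its tested genes in each direction, beside 10.4% lower and 10.6% higher among all genes tested. Both were picked out after their values were seen. The granzyme Gzma was higher in every KO-labelled library (47.1, 43.0 and 25.1 against 23.0, 8.31 and 15.3 TPM). Nkg7, a cytotoxic granule protein, was lower in each of them (30.5, 48.5 and 32.3 against 52.9, 57.2 and 66.9 TPM). The part of such cells in the Cd96, Tigit and Cd226 levels was not tested.

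With 3 libraries on each side, 0.1 is the smallest p that an exact two-sided permutation test can reach. It gave 0.1 for the 6 receptors whose groups did not overlap, 0.2 for Lag3, 0.3 for Tigit, 0.5 for Cd226 and 0.6 for Btla. In limma over all genes, weighting the libraries by their estimated quality brought 3 receptors under the threshold: Icos (adjusted p = 0.0339), Havcr2 (adjusted p = 0.03667) and Lag3 (adjusted p = 0.04205). In that fit 582 genes passed in all. The weights were lowest for KO 3 (0.427) and WT 1 (0.587). No receptor passed with voom on the recovered reads. The count of 5 receptors lower at an unadjusted p under 0.05 was 2 without WT 2, and 3 without KO 2 or WT 3. The count of 2 higher was 1 without any one of KO 1, KO 2, WT 1, WT 2 and WT 3. Over all 13211 genes, 2068 had an unadjusted p under 0.05 in either direction in the main test. This number was 1095 without WT 2, 1188 without KO 2 and 1410 without WT 3. It was 1478 without KO 1 and 2632 without WT 1. With the epithelial score as a covariate, both counts were 0, and 584 of 13211 genes had an unadjusted p under 0.05. That score did not overlap between the labels (6.79 to 7.62 against 5.89 to 6.58), so the covariate cannot be told apart from the genotype label. The fit also leaves fewer residual degrees of freedom. The SE rose from 0.128 to 0.216 for Icos and from 0.13 to 0.234 for Ctla4.

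**Figure D2:**
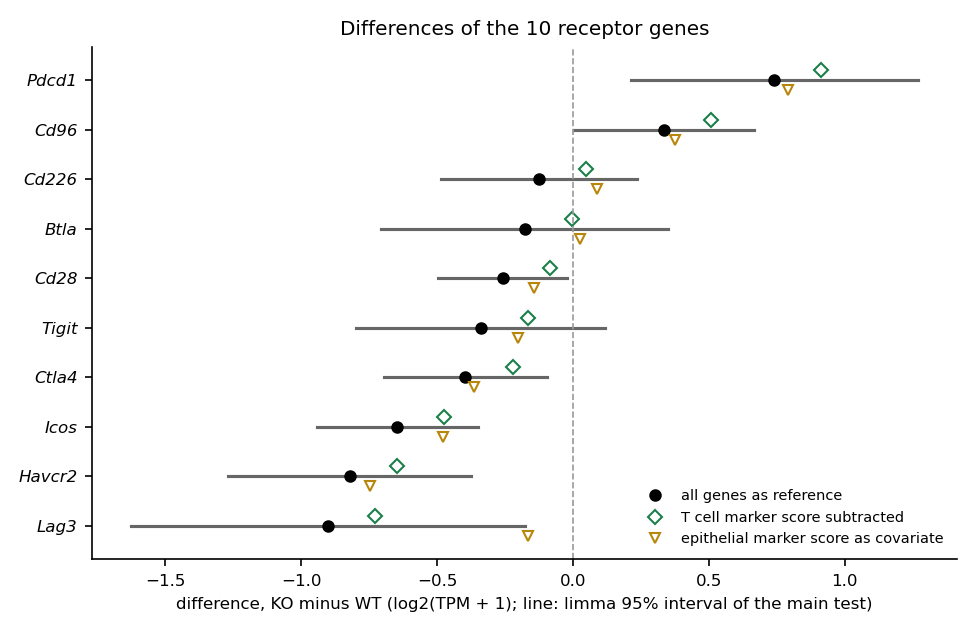
Difference of each receptor between the KO- and WT-labelled libraries (horizontal axis, log2(TPM + 1)); filled points with 95% intervals are the main limma test, diamonds have the T cell marker score subtracted and triangles have the epithelial marker score as a covariate. Pdcd1 and Cd96 stay above 0 and Icos, Havcr2, Ctla4, Lag3, Cd28 and Tigit stay below 0 under all 3, while Btla turns to 0.03 and Cd226 to 0.09 with the covariate, and Cd226 to 0.05 with the T cell score subtracted.

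Subtracting the T cell score moved the median of all genes to 0.17, since T cell markers were lower in the KO-labelled libraries. On that scale Icos and Havcr2 remained lower, and Pdcd1 and Cd96 higher, without overlap of the groups. The share of all genes without overlap on that scale was not computed. The shares of 10.4% and 10.6% belong to the main scale only. The summed level of the 10 receptors was 4882, 3975 and 3829 TPM in the KO-labelled libraries and 5119, 5933 and 5433 TPM in the WT-labelled ones. Pdcd1 took 9.56%, 6.55% and 6.58% of this sum in the KO-labelled libraries and 3.97%, 3.18% and 3.13% in the WT-labelled ones. Icos took 11.9% to 14.4% against 14.9% to 17.3%. The share of Ctla4 was 48%, 50.4% and 50.3% against 54.1%, 48.1% and 48%, so it overlapped. Against Foxp3, a comparison chosen after the values were seen and given as a description, the ratio of Ctla4 in TPM was 12, 11.7 and 8.19 in the KO-labelled libraries and 6.14, 4.3 and 4.41 in the WT-labelled ones. Thus Foxp3 differed by more than Ctla4 did, in the same direction.

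Ratios of 2 receptors within a library are not moved by a common scaling of a library, apart from the added 1 TPM, and 8 were computed. Pdcd1 to Ctla4 was 0.199, 0.13 and 0.131 in the KO-labelled libraries and 0.0737, 0.0665 and 0.0656 in the WT-labelled ones. All KO-labelled libraries were above all WT-labelled libraries, by 1.14 on the log2 scale. Pdcd1 to Havcr2 was 4.15, 2.36 and 2.74 against 1.49, 0.941 and 0.74. Pdcd1 exceeded Havcr2 in all KO-labelled libraries, and was below it in WT 2 and WT 3. Pdcd1 was higher, and Ctla4 and Havcr2 lower, in every KO-labelled library. Separation of Pdcd1 to Ctla4 and of Pdcd1 to Havcr2 was therefore fixed by the single genes. Pdcd1 to Lag3 was 4.01, 1.98 and 1.37 against 1.3, 0.55 and 0.504, so KO 3 and WT 1 nearly met.

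Among the costimulators, Icos to Cd28 was 2.98, 3.51 and 3.21 in the KO-labelled libraries and 3.81, 4.68 and 4.21 in the WT-labelled ones. The difference in this log2 ratio was -0.39, so Icos differed by more than Cd28 did. Cd28 to Ctla4 was 0.0834, 0.0817 and 0.0872 against 0.0724, 0.0769 and 0.0804. The groups were apart by a small step, 0.14 on the log2 scale. Icos to Ctla4 (-0.25) overlapped between the groups. On the nectin-like axis, Cd96 to Tigit was 0.0525, 0.0595 and 0.0633 against 0.0409, 0.0338 and 0.035, higher in every KO-labelled library by 0.68. Cd226 to Tigit, the ratio of costimulator to inhibitor, differed by 0.22 and overlapped. The exact two-sided permutation p was 0.1, the smallest possible, for the 6 ratios that did not overlap. It was 0.3 for Icos to Ctla4 and Cd226 to Tigit. After Benjamini-Hochberg adjustment over the 8 ratios these were 0.133 and 0.3. For Pdcd1 to Ctla4 and Pdcd1 to Havcr2 these p-values add nothing to the single genes, which fixed the separation.

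**Figure D3:**
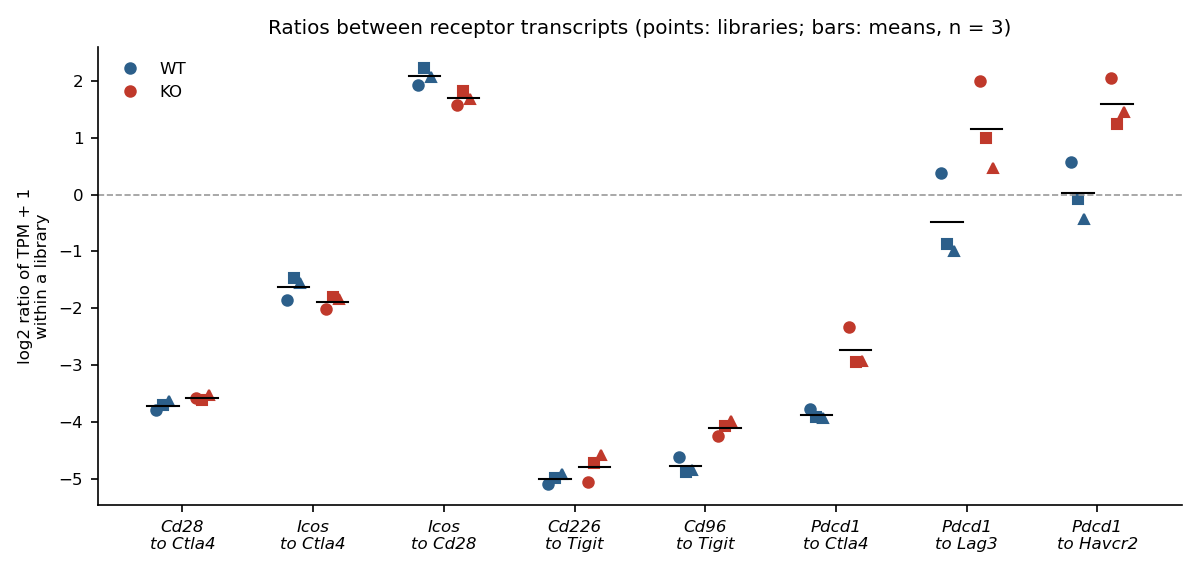
Log2 ratio of TPM + 1 between 2 receptors within each library (vertical axis) for 8 ratios (horizontal axis), with points for libraries and bars for means of 3. The 3 ratios with Pdcd1 are higher in every KO-labelled library, Icos to Cd28 is lower in each of them, and Icos to Ctla4 and Cd226 to Tigit overlap.

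Of 15 genes for ligands of these receptors 14 were tested. At an unadjusted limma p under 0.05, 2 were lower and 3 higher, beside 7.86% and 7.8% of all genes tested. None had an adjusted p under 0.05 (smallest 0.2113). Cd80, a ligand shared by CD28 and CTLA-4, was at 16.1, 18.2 and 13.6 TPM in the KO-labelled libraries and 33.0, 19.6 and 20.6 TPM in the WT-labelled ones (-0.55). Cd274, which encodes the PD-1 ligand PD-L1, was at 97.4, 102.4 and 104.8 against 136.2, 121.3 and 109.0 TPM (-0.26). Both were lower in every KO-labelled library, while Pdcd1 itself was higher there. The other PD-1 ligand, Pdcd1lg2, overlapped (0.21), as did the other shared B7 ligand Cd86 (-0.08), the ICOS ligand Icosl (-0.09) and the BTLA ligand Tnfrsf14 (-0.04).

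Nectin2, a ligand of the TIGIT and CD226 axis, was at 13.5, 25.5 and 11.6 TPM against 10.3, 6.12 and 7.92 TPM (0.92). Ceacam1, a ligand of TIM-3, was at 221.4, 356.5 and 190.3 against 146.6, 147.8 and 156.9 TPM (0.71). Lgals3, a galectin that binds LAG-3, was at 329.4, 496.4 and 230.3 against 242.2, 200.9 and 220.5 TPM (0.60). Each of these 3 was highest in KO 2, the library with the highest epithelial score, and colon epithelium is known to express them. The part of epithelial RNA in them was not tested. Pvr, the main TIGIT ligand, differed little (25.8, 29.9 and 28.5 against 26.0, 25.6 and 26.2 TPM), and so did the TIM-3 ligand Lgals9 (0.13). Fgl1, a LAG-3 ligand, was under the filter, at most 0.699 TPM.

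Other receptors of the same kind were counted in the same way. Of 18 listed, 16 were in the table and 14 were tested, with 1 lower and 0 higher at an unadjusted p under 0.05 and a median of -0.16. With 14 genes, such counts are near the shares of 7.86% and 7.8% among all genes. Slamf1, a self-ligand receptor of lymphocytes, was the one, at 92.8, 71.6 and 84.8 against 90.1, 110.9 and 107.8 TPM, and its groups overlapped. Vsir, which encodes the inhibitory receptor VISTA, was lower in every KO-labelled library by a small amount (82.2, 88.1 and 88.6 against 92.8, 97.7 and 99.6 TPM). Klrg1, a receptor of terminally differentiated cells, was at 313.9 TPM in KO 1 and at 129.8 and 196.6 TPM in KO 2 and KO 3, against 177.2, 148.8 and 140.1 TPM. KO 1 was thus the highest library for Klrg1 as it was for Pdcd1 and Cd96.

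Downstream of the receptors, 26 signalling genes were tested (median -0.13, smallest limma adjusted p 0.1295). Of these, 5 were lower and 0 higher at an unadjusted p under 0.05, beside 7.86% and 7.8% of all genes tested. Grap2, an adaptor (GADS) that binds the tails of CD28, was at 70.3, 65.9 and 64.1 against 90.1, 104.1 and 95.4 TPM (-0.52). Malt1, the protease that carries the CD28 signal to NF-κB, was at 100.8, 101.9 and 135.4 against 143.3, 217.0 and 177.5 TPM (-0.66). Ptpn22, a phosphatase that dampens antigen signals, was at 183.6, 177.2 and 173.7 against 211.8, 295.0 and 242.9 TPM (-0.47). These 3 were lower in every KO-labelled library.

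Among 20 trafficking and shedding genes tested, the median was -0.07 and the smallest limma adjusted p 0.193. At an unadjusted p under 0.05, 1 was lower and 3 were higher, beside 7.86% and 7.8% of all genes tested. Lrba, which protects CTLA-4 from lysosomal degradation, was at 33.0, 34.1 and 44.3 TPM in the KO-labelled libraries and 46.4, 62.5 and 64.7 TPM in the WT-labelled ones (-0.62). Its groups did not overlap. In this list 3 genes were lower and 4 higher without overlap, beside 10.4% and 10.6% of all genes tested. Pld1, a phospholipase linked to CTLA-4 export, was higher in every KO-labelled library (9.09, 11.7 and 7.40 against 5.08, 4.17 and 6.80 TPM). Cd81, a tetraspanin, had a difference of 0.54 with overlapping groups.

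Transcription factors linked to these receptor genes numbered 22 tested, with a median of -0.08. At an unadjusted limma p under 0.05, 5 were lower and 0 higher, beside 7.86% and 7.8% of all genes tested. Foxp3 had the smallest p (-1.49, limma adjusted p = 0.0678). Maf, which supports Il10 and several inhibitory receptors, was at 203.5, 212.5 and 262.9 against 316.4, 450.0 and 424.5 TPM (-0.80). Tbx21, which encodes T-bet, was at 9.34, 12.02 and 11.6 against 14.7, 19.0 and 17.6 TPM (-0.60). All 3 were lower in every KO-labelled library. Markers of follicular helper T cells, which carry much Pdcd1, Icos and Btla, summed to 153.3 to 181.3 TPM against 164.5 to 177.3 TPM. Their defining receptor Cxcr5, also picked out after its values were seen, was lower in every KO-labelled library (13.6, 20.3 and 19.9 against 31.9, 39.5 and 31.7 TPM), and 1 of 5 tested was lower and 0 higher at an unadjusted p under 0.05. Over the 5 the median was 0.15, and 3 were above 0. The Treg marker list without the receptors had a median of -0.07, with 4 of 11 above 0. Markers of mast cells and neutrophils summed to 44.3 to 85.3 TPM against 23.8 to 32.2 TPM, so these sums did not overlap. All 5 tested of 10 were above 0, with a median of 1.35, and 3 were higher at an unadjusted p under 0.05. One of them, the neutrophil gene S100a8, was at 1.22, 5.57 and 8.57 TPM in the KO-labelled libraries and at 0 in the WT-labelled ones. It rested on 4, 20 and 35 reads and passed the filter only through the KO-labelled libraries. The filter itself thus favoured values above 0 in this count and median. The part of mast cells and neutrophils in the receptor levels was not tested.

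**Figure D4:**
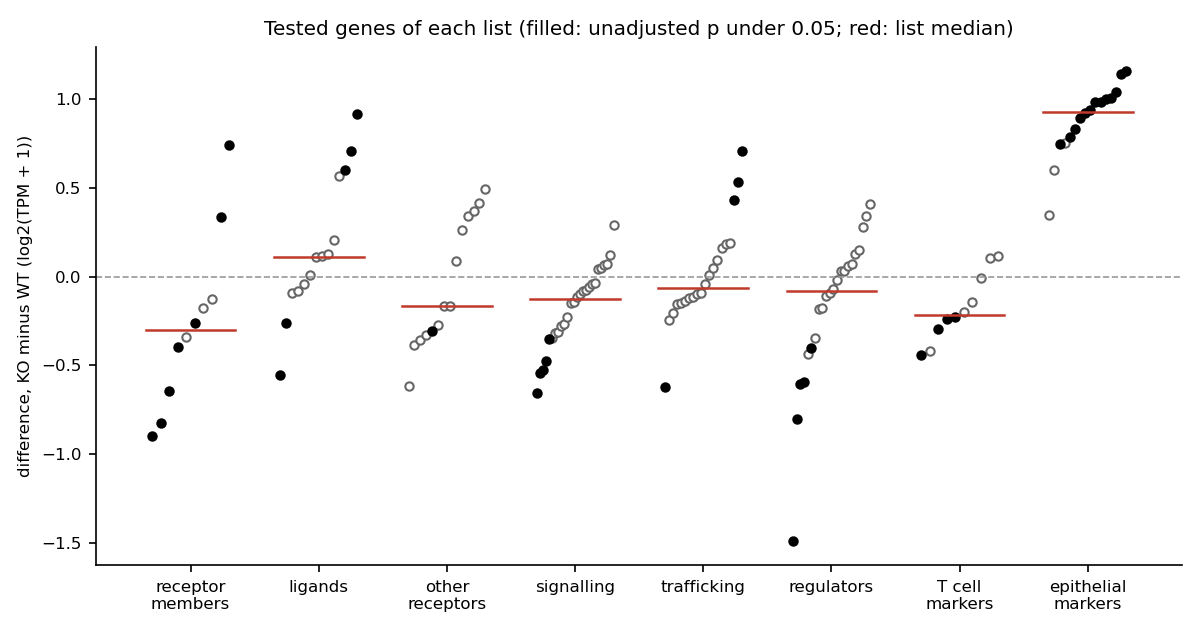
Difference of each tested gene between the KO- and WT-labelled libraries (vertical axis, log2(TPM + 1)) for the 10 receptors and 7 lists (horizontal axis); filled points have an unadjusted p under 0.05 and red lines are list medians. The receptors have a median of -0.30 with Pdcd1 and Cd96 on the upper side, and the epithelial markers a median of 0.93.

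Rows of other genes within 50 kb of a receptor's row gave a comparison with the receptors' surroundings. Ptms, 1970 bases from Lag3, was at 281.7, 374.1 and 326.9 against 340.7, 413.0 and 480.0 TPM (-0.32). Cops7a, 47.1 kb from Lag3, was higher in every KO-labelled library (0.46) while Lag3 was lower in the mean. Gm12169, 43.0 kb from Havcr2, was lower in every KO-labelled library (8.25, 6.25 and 8.67 against 9.62, 21.6 and 13.4 TPM), as Havcr2 was. Plcxd2, 25.2 kb from Cd96, was lower in every KO-labelled library (-0.34), and Gm4737, 32.7 kb from Cd96, was higher in each (0.42), as Cd96 was. The groups overlapped for Ptms and for Atg3 (-0.06), Mlf2 (0.10), Gpr162 (-0.49), P3h3 (0.17), Med7 (-0.49), Mir568 (-0.27) and Zbtb20 (-0.34). These were the remaining tested rows, apart from Cd4, which was lower in every KO-labelled library. Among all genes tested, 10.4% were lower and 10.6% higher without overlap. Neu4, the nearest row to Pdcd1, was at 0 in all 6 libraries. No row of another gene lay within that distance of Cd28, Ctla4 or Icos.

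The spread between replicates exceeded the counting error for every receptor in both groups except Cd96 in the WT-labelled libraries. The coefficient of variation ran from 4.18% (Icos) to 37.3% (Pdcd1) in the KO-labelled libraries and from 3.62% (Cd96) to 38.2% (Lag3) in the WT-labelled ones. Counting error at the fewest reads ran from 0.551% (Ctla4, 32935 reads) to 5.24% (Cd226, 364 reads) and covers counting only. Pdcd1, Btla, Lag3, Tigit and Havcr2 had a coefficient of variation above 20% in at least one group.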

How the data were processed

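RNA from colon Tregs was extracted with Trizol and sequenced as poly(A) libraries made with a stranded kit, per the labels' protocols. The authors deposited 1 table of TPM, a length-scaled abundance that summed to 634200 to 644662 per library here. Per the submitters' processing notes the tools were STAR 2.5.3a, HOMER 4.9.1, FastQC 0.11.8 and Trim Galore 0.4.4, with mm10. Reads were recovered from TPM and row length for depth and for one alternative. The main test was limma 3.58.1 (R 4.3.3) with a variance trend on log2(TPM + 1), over 13211 genes with at least 1 TPM in at least 3 of the 6 libraries, with Benjamini-Hochberg adjustment over all of them and a threshold of 0.05. Differences are on that scale, which understates low genes, and ratios of means are of the TPM values themselves. Single values had the exact two-sided permutation test. The code was tested on simulated data. Alternatives are listed in the closing part. All members were named; of the ligands and other receptors any tested gene, of the other pathway lists the 3 with the smallest p, and rows within 50 kb of a member. Members and lists were chosen with earlier results of these data known. Several lists share genes, such as Foxp3 and Ikzf2. Sequences were matched by symbol to RefSeq upstream windows of GRCm38.p6. Cd244a and Pvrig were not analysed here.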

Additional observations from a re-analysis of the deposited data

How the results depend on the processing

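Member differences and counts by p were recomputed under 18 other settings, and the ratios and counts of separated members under 8. Directions of 8 members held in all 18, and those of the 8 ratios in all 8; adding the epithelial score to the model gave Btla 0.025 and Cd226 0.087, and Cd226 was 0.048 with the T cell score subtracted. With the covariate, 0 members were lower and 0 higher at an unadjusted p under 0.05. Subtracting the T cell score left 3 lower by that p and 2 with all KO-labelled libraries below all WT-labelled ones. For such separation, the share of all genes on that scale was not computed. Over all genes, 2754 met that p in either direction with the T cell score subtracted, against 2068 in the main test. The count higher was 1 with median of ratios size factors, without a variance trend and with the replicate block. Of all genes, 2103 met that p in either direction with the size factors and 1921 without the trend. Array weights brought 3 members to an adjusted p under 0.05 in limma, against 0 in the main test. Leaving out each library in turn gave 2 to 5 members lower and 1 to 2 higher, while 1095 to 2958 of all genes met that p in either direction. With the replicate number as a block, 4 members were lower and 1 higher, and 1819 of all genes met it. The correlations of same-numbered deviations from the group means were 0.0037, -0.219 and -0.0408. Those of differently numbered libraries ran from -0.119 to 0.162. With 3 libraries a group, these values cannot decide whether the numbers pair the libraries. Where the cause of a change was not shown by the setting itself, the cause was not tested. With 3 libraries a group, the exact test cannot go below 0.1.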
